A study of Homo sapiens with 30 samples.

Results

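Expression of 9 interferon-stimulated genes (IFIT1, IFIT2, IFIT3, OAS1, OAS2, OAS3, MX1, ISG15 and BST2) was examined in Rh30 cells. The genes were taken by symbol from the deposited count tables, and all 9 were found in each, among 23262 genes in the time-course tables and 23261 in the clone table. They were chosen with earlier results of these data known, so their counts beside the share of all genes are a description. Rh30 is an established alveolar rhabdomyosarcoma cell line that carries the fusion transcription factor PAX3-FOXO1. The series holds 30 RNA sequencing samples in 15 groups of 2. Of these, 10 are libraries of DMSO-treated cells with no tag (parental Rh30) or with tagged PAX3-FOXO1-FKBP in clones 4, 10, 11 and 12, each line being 1 clone. The time course covers a PAX3-FOXO1-FKBP line and a FOXO1-FKBP line, each in DMSO or in 500 nM dTAG for 2, 6, 24 or 72 h. FKBP is a degradation tag, and dTAG is a small molecule that directs the tagged protein to the proteasome, which in the FOXO1-FKBP line is FOXO1 and not the fusion. An effect of the compound and one of FOXO1 loss cannot be told apart in that line. No protein was measured, and the sources used here do not say whether 1 of the 4 clones became the PAX3-FOXO1-FKBP line of the time course. The labels do not state separate cultures for the samples of a group. A p-value therefore reflects spread between these libraries, whose source may be technical.

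Type I interferons bind a receptor at the cell surface, JAK kinases then activate STAT proteins, and these join IRF9 in a complex that binds the interferon-stimulated response element (ISRE) in promoters. The genes switched on in this way encode antiviral proteins, and many tumour cell lines keep some of them on without added interferon. IFIT1, IFIT2 and IFIT3 form complexes that bind foreign RNA, ISG15 is a ubiquitin-like protein that is attached to other proteins, and OAS1, OAS2 and OAS3 are oligoadenylate synthetases that sense double-stranded RNA. MX1 is a GTPase that blocks viral nucleocapsids, and BST2, also called tetherin, holds budding virus particles at the cell surface.

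RefSeq promoter records (GRCh38.p14, 250 bases before and 50 bases after the start site) were matched for 7 members, and 6 of these held the ISRE core in at least 1 entry. The core was searched on both strands as GAAANNGAAA, which 3.57% of all 35116 promoters of that length hold. OAS1 was the member with an entry and no such match. The gamma-activated site, searched as TTCNNNGAA, was found in OAS1, MX1 and BST2, against 7.66% of all promoters. The promoters of 5 members whose values are described most are printed 5′ to 3′ on the gene's own strand, with every ISRE core, in either direction, in capitals. The deposited tables are on hg19, so these coordinates belong to the promoter records alone. A match of letters is a description and no evidence of binding.
ISG15, chr1:1013247-1013546, plus strand: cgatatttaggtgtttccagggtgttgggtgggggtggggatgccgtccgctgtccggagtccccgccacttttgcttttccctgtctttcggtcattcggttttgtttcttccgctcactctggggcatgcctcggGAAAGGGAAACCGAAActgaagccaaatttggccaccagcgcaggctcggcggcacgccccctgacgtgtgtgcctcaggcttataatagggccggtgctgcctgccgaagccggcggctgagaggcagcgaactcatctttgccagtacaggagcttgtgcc
IFIT1, chr10:89392373-89392672, plus strand: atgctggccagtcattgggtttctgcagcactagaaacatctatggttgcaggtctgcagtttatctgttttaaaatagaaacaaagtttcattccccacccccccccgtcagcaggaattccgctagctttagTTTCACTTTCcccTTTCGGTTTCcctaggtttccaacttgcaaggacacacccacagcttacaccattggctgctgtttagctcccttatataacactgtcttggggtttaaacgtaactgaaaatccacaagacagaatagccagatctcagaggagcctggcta
IFIT3, first entry, chr10:89327747-89328046, plus strand: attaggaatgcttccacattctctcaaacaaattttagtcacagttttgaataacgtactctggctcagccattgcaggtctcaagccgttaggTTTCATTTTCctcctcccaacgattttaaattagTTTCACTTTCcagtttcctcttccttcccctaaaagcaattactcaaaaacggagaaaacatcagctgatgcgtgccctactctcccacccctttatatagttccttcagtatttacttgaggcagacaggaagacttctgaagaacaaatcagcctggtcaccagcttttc
OAS3, chr12:112938224-112938523, plus strand: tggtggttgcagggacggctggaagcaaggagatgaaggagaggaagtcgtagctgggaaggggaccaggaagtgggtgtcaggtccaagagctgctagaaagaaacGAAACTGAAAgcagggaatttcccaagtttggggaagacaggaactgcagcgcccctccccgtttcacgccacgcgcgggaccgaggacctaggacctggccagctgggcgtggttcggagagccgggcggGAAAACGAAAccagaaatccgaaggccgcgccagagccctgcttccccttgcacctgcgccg
BST2, chr19:17405581-17405880, minus strand: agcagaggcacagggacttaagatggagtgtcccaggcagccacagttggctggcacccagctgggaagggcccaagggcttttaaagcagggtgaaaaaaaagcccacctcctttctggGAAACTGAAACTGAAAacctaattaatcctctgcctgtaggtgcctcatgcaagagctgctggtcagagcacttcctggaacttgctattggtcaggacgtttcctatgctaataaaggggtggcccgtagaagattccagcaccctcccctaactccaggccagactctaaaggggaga
All 5 hold the core at 2 places. In ISG15 and in BST2 the matches overlap one another, and in BST2 the first also overlaps a gamma-activated site match. Of the 5, BST2 is the one that fell in clone 10.

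Total counts were 17746684 to 26834005 per clone library and 25863451 to 30466960 per time-course column. Normalised counts are counts scaled with TMM factors within a table, or within a line for the time course. All 8 rhabdomyosarcoma and myoblast markers reached at least 10 counts in every library and column. Of 12 B-lineage markers, 2 to 4 reached 10 counts in all columns and libraries but 1. The exception was the 2 h column of the PAX3-FOXO1-FKBP line, where 12 of 12 did, and 7 of 8 pan-leukocyte markers against 3 or 4 elsewhere. FCRLA, one of the 12, was present in every library and column. The other 11 B-lineage markers summed to 1678 normalised counts there and to 46.5 to 57.9 in the other columns of that line, and MS4A1, a B-cell surface protein, was listed at 222 there and at 0 in those 4. Slopes over time were therefore also fitted without that column.

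In the PAX3-FOXO1-FKBP line the IFIT genes and ISG15 reached their highest levels after 72 h of dTAG. Each time-course column is the authors' pool of 2 samples, so single times carry no replicate error, and a size rule was used: at least 2-fold against DMSO on log2(normalised count + 2), for genes whose mean over the 5 columns reached 50 normalised counts. IFIT1, IFIT2, IFIT3 and ISG15 met that minimum. Of these 4, 0, 1, 1 and 3 were at least 2-fold higher at 2, 6, 24 and 72 h. The share of all 12333 genes measured that were at least 2-fold higher was 0.373%, 0.608%, 1.38% and 3.47% at those times. None of the 4 was at least 2-fold lower at 72 h, against 3.01% of all genes. The median log2 change of the 4 was 0.215 at 2 h, 0.587 at 6 h, -0.0535 at 24 h and 1.14 at 72 h, and that of all genes lay between -0.000667 and 0.0143.

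IFIT1 stood at 39.8 normalised counts in DMSO, 42.3 at 2 h, 106.2 at 6 h, 86.5 at 24 h and 169.5 at 72 h. Its level was thus raised from 6 h on, with log2 changes of 1.37, 1.08 and 2.04 at 6, 24 and 72 h. The counting error of the 72 h change was 0.251 (SE from counts alone). A slope on log2(hours + 1) through the 5 columns was fitted for 13543 genes with edgeR's quasi-likelihood test, and 4.39% of them were called at an adjusted p under 0.05. IFIT1 rose in this test, by 0.33 per unit (SE 0.0691, edgeR adjusted p = 0.0393, 5 pooled columns), and it was the 1 member called of 6 tested. Without the 2 h column the slope was 0.291 (edgeR adjusted p = 0.0621) and without the 72 h column it was 0.288 (0.448), so the slope was of like size and the call was lost in both. Such a p-value reflects how far pooled columns scatter from a line, not replicate error.

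IFIT2 and IFIT3, which act together with IFIT1 in RNA-binding complexes, were highest at 72 h too but had no steady course. IFIT2 was at 107.4 in DMSO and at 111.3, 172.5, 100.8 and 211.0 after 2, 6, 24 and 72 h. The 24 h column was back at the DMSO level. IFIT3 was at 111.9 in DMSO and at 142.8, 138.7, 110.7 and 247.8 at the same times. Their log2 changes at 72 h were 0.96 and 1.13, and neither slope passed the test (edgeR adjusted p = 0.384 for IFIT2 and 0.283 for IFIT3). Between 24 and 72 h they gained 1.05 and 1.15 on the log2 scale, while the median of all genes moved by -0.0094.

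ISG15, the ubiquitin-like modifier, was at 494 normalised counts in DMSO, 716 at 2 h, 700.1 at 6 h, 418 at 24 h and 1098 at 72 h. The 24 h column was the lowest of the 5 and the 72 h column the highest. The step from 24 to 72 h was 1.39 on the log2 scale, and the change at 72 h against DMSO was 1.15 (slope, edgeR adjusted p = 0.446). ISG15 has a short transcript of 787 bases, against a median of 3527 bases over the genes measured. Change at 72 h fell with transcript length over 11083 genes of this line (Spearman's rho = -0.279, across genes, which are not independent replicates). After subtraction of a curve fitted on length and GC content the change of ISG15 at 72 h was 0.82, under the 2-fold rule, and those of IFIT1, IFIT2 and IFIT3 were 2.12, 1.00 and 1.06.

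**Figure D1:**
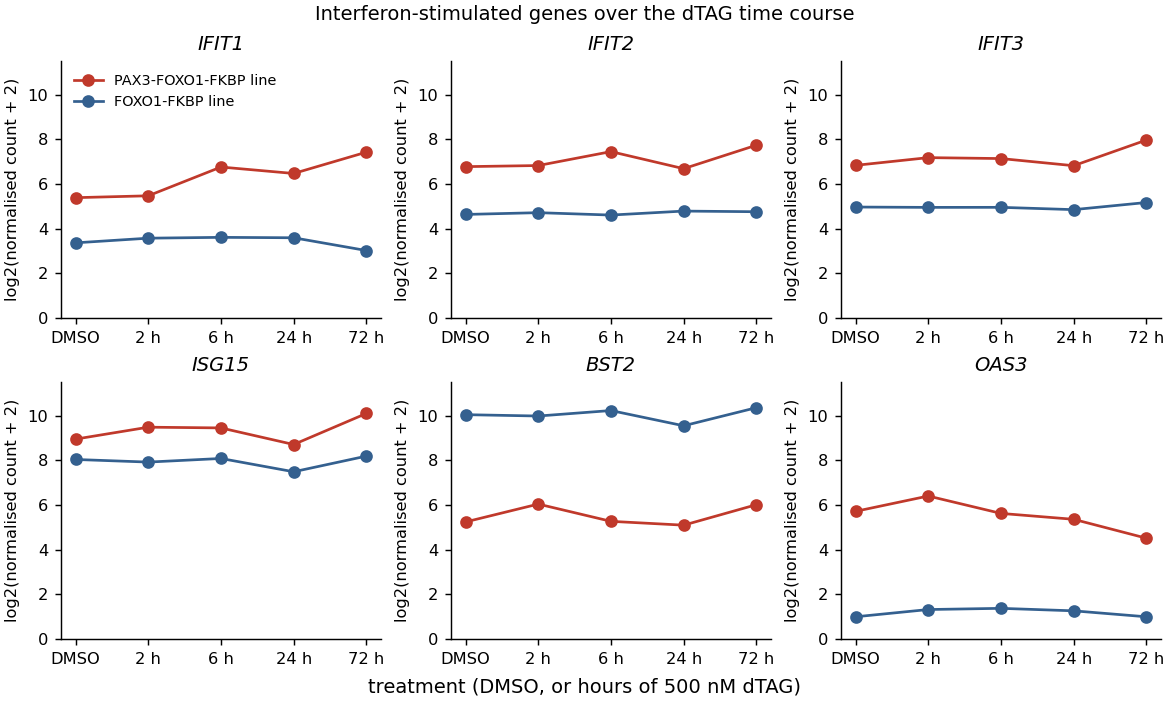
Level of 6 members, as log2(normalised count + 2), in DMSO and after 2, 6, 24 and 72 h of 500 nM dTAG; each point is 1 pooled column, red for the PAX3-FOXO1-FKBP line and blue for the FOXO1-FKBP line. IFIT1, IFIT2, IFIT3 and ISG15 peak at 72 h in the red line, OAS3 is lowest there, and BST2 lies far lower in the red line than in the blue one at every time.

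OAS3 and BST2, with means of 48.2 and 46.4, fell just short of the minimum of 50. OAS3 was at 50.7 in DMSO, 82.9 at 2 h, 47.5 at 6 h, 39.2 at 24 h and 20.9 at 72 h. Its highest value was in the column with B-lineage RNA and its lowest at 72 h, a log2 change of -1.20 against DMSO, opposite to the IFIT genes (slope -0.23, edgeR adjusted p = 0.219). BST2 was at 36.0 in DMSO and at 64.1, 36.7, 32.3 and 62.8 at 2, 6, 24 and 72 h, with no steady course (edgeR adjusted p = 0.821).

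MX1, OAS1 and OAS2 were seen at 2 h and were otherwise at or near 0. MX1 was at 2.76 normalised counts in DMSO, 31.3 at 2 h, 1.40 at 6 h, 0 at 24 h and 1.08 at 72 h. OAS1 was at 12.3 and OAS2 at 14.3 at 2 h, and both stood at no more than 2.17 in the other 4 columns. The 2 h peak of these genes thus lay in the column that holds B-lineage RNA. MX2 was at 33.9 there and listed at 0 in the other columns of the line. What B-lineage RNA contributes to the 2 h values was not tested.

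**Figure D2:**
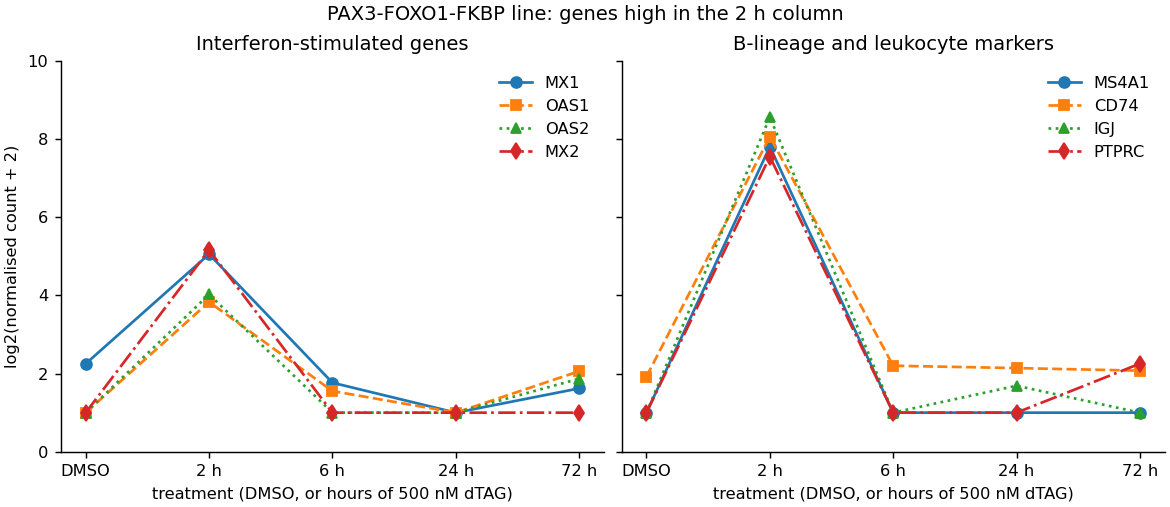
Level, as log2(normalised count + 2), of MX1, OAS1, OAS2 and MX2 (left) and of the B-lineage and leukocyte markers MS4A1, CD74, IGJ and PTPRC (right) in the 5 pooled columns of the PAX3-FOXO1-FKBP line. All 8 genes are highest in the 2 h column and near the bottom of the scale in the other columns.

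In the FOXO1-FKBP line, given the same dose for the same times, 72 h log2 changes were -0.34 for IFIT1, 0.12 for IFIT2 and 0.20 for IFIT3. IFIT1 was at 8.29 normalised counts in DMSO and at 9.89, 10.2, 10.0 and 6.10 at 2, 6, 24 and 72 h. IFIT2 stayed between 22.4 and 25.6, and IFIT3 between 26.8 and 34.0. ISG15 was at 261.7 in DMSO, and at 241.2, 270.0, 178.1 and 290.7. BST2 was at 1057 in DMSO and at 1014, 1202, 748 and 1314. ISG15 was lowest at 24 h and highest at 72 h in this line as well. So was BST2. In the PAX3-FOXO1-FKBP line BST2 was also lowest at 24 h (32.3). Its highest value there was in the 2 h column, which holds B-lineage RNA (64.1), and 72 h came next (62.8). Steps between 24 and 72 h in the FOXO1-FKBP line were 0.70 for ISG15 and 0.81 for BST2 on the log2 scale. In the PAX3-FOXO1-FKBP line they were 1.39 and 0.92. Change at 72 h in this line also fell with transcript length (rho = -0.511, 10776 genes), and BST2, with 1019 bases, is short as well. MX1 and OAS1 were listed at 0 in all 5 columns, and OAS2 and OAS3 at no more than 0.86.

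ISG15 and BST2 were the 2 members measured under the size rule in the FOXO1-FKBP line, and 0 of them passed it at 72 h, against 0.0501% of all genes at least 2-fold higher and 0.367% at least 2-fold lower. The slope test there called 0 of 13352 genes (0%) with edgeR, including 0 of 4 members tested, although 618 genes had an unadjusted p under 0.05. DESeq2 called 1 gene on the same slope. The difference in slope between the lines was called by edgeR for 2.13% of 13035 genes and for 0 of 4 members tested, with adjusted p of 0.704 for IFIT3, 0.734 for ISG15, 0.781 for IFIT2 and 0.967 for BST2. IFIT1 failed the count filter of that test in the FOXO1-FKBP line. With a filter met in either line, chosen after the data were seen, its slope was 0.37 higher in the PAX3-FOXO1-FKBP line (SE 0.131, edgeR adjusted p = 0.228, 10 pooled columns). The members' slopes were thus not shown to differ between the lines.

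Few other genes of the pathway were called on the slope over the time course. Of 21 interferon ligand genes in the tables, 16 had no count in any column or library, and the highest estimated count of any was 3.31, for IFNE. The slope test called 0 of 9 receptor and kinase genes, 0 of 8 STAT and IRF factors, 0 of 11 class I presentation genes, 0 of 8 interferon gamma responsive genes and 0 of 34 other interferon-stimulated genes. With 4.39% of all genes called, counts of 0 in lists of this size lie near the background and do not show that these genes held their level. Of the sensors and adaptors 1 of 12 was called: IFI16, a DNA sensor, fell from 2361 normalised counts in DMSO to 1151 at 72 h (log2 change -1.04, edgeR adjusted p = 0.011). USP18, the protease that takes ISG15 off proteins and dampens the receptor, rose, as the 1 of 7 called among ISG15 conjugation enzymes and negative regulators. It was at 216.9 in DMSO and at 246.0, 296.8, 431.2 and 639.2 at 2, 6, 24 and 72 h, a steady climb (edgeR adjusted p = 0.00466). In the FOXO1-FKBP line USP18 was at 341.4 in DMSO and at 355.3 at 72 h, and its slope differed between the lines (edgeR adjusted p = 0.00804).

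Under the size rule, 1 of 31 other interferon-stimulated genes measured was at least 2-fold higher at 72 h, beside 3.47% of all genes. It was 1 of 3 interferon gamma responsive genes and 1 of 7 ISG15 conjugation enzymes and negative regulators (USP18). Among 8 receptor and kinase genes, 8 STAT and IRF factors, 10 sensors and adaptors and 11 class I genes it was 0. In lists of this size such counts are not read as a pathway response. IFI6 and GBP4 passed 2-fold with no call on the slope. IFI6, a mitochondrial antiviral protein, went from 518.7 in DMSO to 1107 at 72 h (log2 change 1.09, edgeR adjusted p = 0.0813). GBP4, a guanylate-binding protein, went from 31.0 to 101.6 (log2 change 1.65, edgeR adjusted p = 0.241), and from 32.9 to 72.0 in the FOXO1-FKBP line (1.08). Among the most abundant genes of the lists, log2 changes at 72 h were 0.12 for JAK1, 0.13 for STAT3 and 0.30 for B2M, the light chain of class I molecules. They were -0.38 for HERC5, a ligase for ISG15, -0.45 for WARS, -0.53 for ADAR, an RNA-editing enzyme, and -0.54 for LGALS3BP.

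The 4 tagged clones were compared with parental Rh30 without dTAG. Clone 10 held more IFIT1, IFIT2, IFIT3, ISG15 and OAS3 and less BST2 than parental Rh30. The count filter left 14175 genes and 6 of the 9 members. OAS3 passed it through clone 10 alone, so that its calls and fold changes there are a description. MX1 had 6 counts in a single clone 10 library, 2 or fewer in each of the other libraries, and OAS1 and OAS2 had 0 counts in all 10, where a count of 0 allows up to 3 counts, or 0.112 to 0.169 CPM (counts scaled to a common total). Of the 5 other members tested, 5 were called in clone 10 against parental Rh30 (4 higher and 1 lower), 3 in clone 12, 1 in clone 11 and 0 in clone 4 (edgeR adjusted p under 0.05). In clone 4 IFIT2 was nearest the threshold (edgeR adjusted p = 0.0546). These counts stand against a high background, since 52%, 52.6%, 51.6% and 47.4% of all genes were called in the same comparisons. In clone 10, 27.8% of all genes were called higher and 24.2% lower. The median log2 fold change in clone 10 was 1.64 for the 5 members and 0.042 for the 14030 genes that passed the filter without clone 10. Since the members were chosen with earlier results of these data known, these counts and medians are a description.

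**Figure D3:**
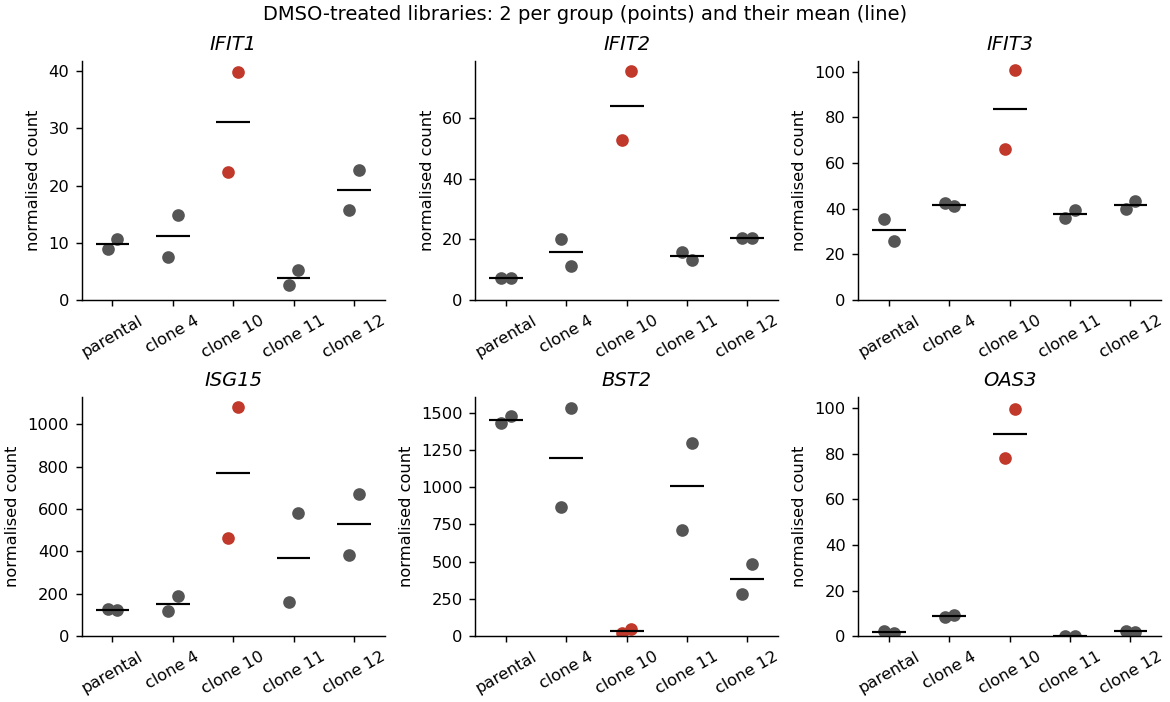
Normalised counts of 6 members in the 10 clone and parental libraries; points are the 2 libraries of a group, lines their mean, red for clone 10, and each panel has its own scale from 0. Both clone 10 libraries lie above all other libraries for IFIT2, IFIT3 and OAS3 and below all others for BST2, while for IFIT1 and ISG15 the lower clone 10 library lies within the range of clone 12.

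IFIT2 stood at 7.25 and 7.15 (normalised counts) in the parental libraries, while clone 4 held 20.2 and 11.4, clone 10 held 52.8 and 75.3, clone 11 held 15.9 and 13.1, and clone 12 held 20.6 and 20.6. Both clone 10 libraries lay above all 8 others. The log2 fold change against parental Rh30 was 3.13 in clone 10 (SE 0.387, edgeR adjusted p = 1.53e-04, 2 libraries a group) and 1.5 in clone 12 (edgeR adjusted p = 0.0127). The call in clone 12 was lost when any 1 of the parental or clone 12 libraries was left out (log2 fold changes of 1.44 to 1.51, edgeR adjusted p of 0.0571 to 0.0759). IFIT2 also rose against clones 4, 11 and 12, by 2.00, 2.11 and 1.63.

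IFIT3 stood at 35.4 and 25.8 in the parental libraries, at 42.6 and 41.0 for clone 4, 66.2 and 100.8 for clone 10, 36.1 and 39.4 for clone 11, and 40.0 and 43.2 for clone 12. Clone 10 was again above the rest, and the other 4 groups lay within 25.8 to 43.2. The log2 fold change in clone 10 was 1.44 (SE 0.295, edgeR adjusted p = 0.00228), and in the other clones 0.30 to 0.45 with no call.

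IFIT1 counts were low. Parental Rh30 had 8.86 and 10.7 normalised counts, clone 4 had 7.46 and 14.8, clone 10 had 22.4 and 39.9, clone 11 had 2.64 and 5.25, and clone 12 had 15.8 and 22.6. Clone 11 was below all other libraries, and clones 10 and 12 overlapped. IFIT1 rose in clone 10 by 1.64 on the log2 scale (SE 0.458, edgeR adjusted p = 0.0118). Without clone 10 replicate 2 the change was 1.14 (edgeR adjusted p = 0.125), and without parental replicate 1 or 2 it was 1.51 and 1.78 (0.0858 and 0.0595). Reads shared with IFIT1B, its nearest paralogue, cannot be told apart here, and IFIT1B itself had a mean of at most 0.447 in any group.

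ISG15 stood at 127.2 and 121.6 normalised counts for the parental libraries, 119.3 and 187.8 for clone 4, 463.6 and 1079 for clone 10, 160.4 and 580.2 for clone 11, and 381.7 and 672.2 for clone 12. Clones 10, 11 and 12 overlapped one another, and all their libraries but the first of clone 11 lay above those of parental Rh30 and clone 4. The gains against parental Rh30 were 2.63 in clone 10 (SE 0.555, edgeR adjusted p = 0.00272), 2.09 in clone 12 (0.00871) and 1.55 in clone 11 (0.035). That of clone 12 was 1.56 without its second library (edgeR adjusted p = 0.0791). That of clone 11 was 0.30 without its second library (edgeR adjusted p = 0.688), and its call was also lost without either parental library (0.105 and 0.117), with DESeq2 (0.0683), with library totals (edgeR, 0.0617) and with the 2 groups alone (edgeR, 0.0587). The difference of clone 10 from clone 11 was 1.08 (95% interval -0.27 to 2.42, edgeR adjusted p = 0.12). It ran from 0.34 to 2.26 over the alternatives and was called in 4 of 16, among them no filter on low counts (edgeR adjusted p = 0.00141), the 2 groups alone (0.00827) and without the second clone 11 library (2.26, 0.0169). The difference from clone 12 was 0.54 (95% interval -0.78 to 1.86, edgeR adjusted p = 0.435).

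The spread of ISG15 within a group ran one way in the tagged clones. The second library of clones 4, 10, 11 and 12 held more ISG15 than the first, by 0.65, 1.22, 1.84 and 0.81 on the log2 scale, and more BST2, by 0.82, 1.01, 0.86 and 0.79. In parental Rh30 these differences were -0.06 and 0.05. The difference between the libraries of a group also fell with transcript length over 10606 genes, with rho of -0.667 in clone 4, -0.484 in clone 10, -0.298 in clone 11 and -0.069 in clone 12. In parental Rh30 rho was -0.0851, so clone 12 had the weakest relation with length of the groups. A curve fitted on length and GC content was subtracted from the log2 fold changes against parental Rh30. ISG15 was then at -0.02, 2.40, 0.71 and 1.38 in clones 4, 10, 11 and 12, and BST2 at -0.58, -5.69, -1.24 and -2.56. The part of length in the spread between the 2 libraries of a group was not tested.

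OAS3 had raw counts of 3 and 2 for parental Rh30, 8 and 8 for clone 4, 87 and 90 for clone 10, 0 and 0 for clone 11, and 2 and 2 for clone 12. Clone 10 was thus the one group with more than 8 counts in a library. Its level was 46.3 times that of parental Rh30 (95% exact counting interval 19.5 to 144, from 177 against 5 counts), 9.95 times that of clone 4 (5.96 to 17.8) and at least 27-fold higher than in clone 11, taken at a floor of 3 counts per library. These intervals cover counting error only. The edgeR log2 fold change against parental Rh30 was 5.46 in clone 10, given with no p, and 2.14 in clone 4 (SE 0.578, edgeR adjusted p = 0.0123, from 16 against 5 counts). The call in clone 4 was lost without the second parental library (1.81, edgeR adjusted p = 0.102) and without the second clone 4 library (2.04, 0.0507). In clone 11 both groups lie at or under the floor, so no fold is given, and a call of lower was lost when any 1 of the 4 libraries was left out (edgeR adjusted p of 0.0573 to 0.162). OAS1 and OAS2, which flank OAS3 in the gene order of the RefSeq records, had 0 counts in clone 10.

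BST2 went the other way. Normalised counts were 1428 and 1475 for parental Rh30, 866 and 1528 for clone 4, 21.5 and 45.4 for clone 10, 712 and 1297 for clone 11, and 281.2 and 485.9 for clone 12. Clone 10 was below every other library, and clone 12 came next. Neither clone 4 nor clone 11 was called against parental Rh30, although clone 11 was with no filter on low counts (-0.605, edgeR adjusted p = 0.0194) and with the replicate block (-0.68, 0.0116). The level in parental Rh30 was 45.1 times that of clone 10 (95% exact counting interval 35.3 to 58.6, from 3835 against 65 counts). The log2 fold change was -5.47 in clone 10 (SE 0.464, edgeR adjusted p = 2.39e-05) and -1.92 in clone 12 (edgeR adjusted p = 0.00151). Ranked from the lowest fold change in clone 10, BST2 was at place 51 of 14175 genes, and OAS3, at 14145, was the member nearest the other end. Of the genes within 4 places of BST2 in the RefSeq order, SLC27A1 was called lower in clone 10 (log2 fold change -0.43, edgeR adjusted p = 0.0359). FAM125A (0.14), GTPBP3 (0.02), ANO8 (-0.07) and TMEM221 (1.04) were not called, and the others were not tested.

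**Figure D4:**
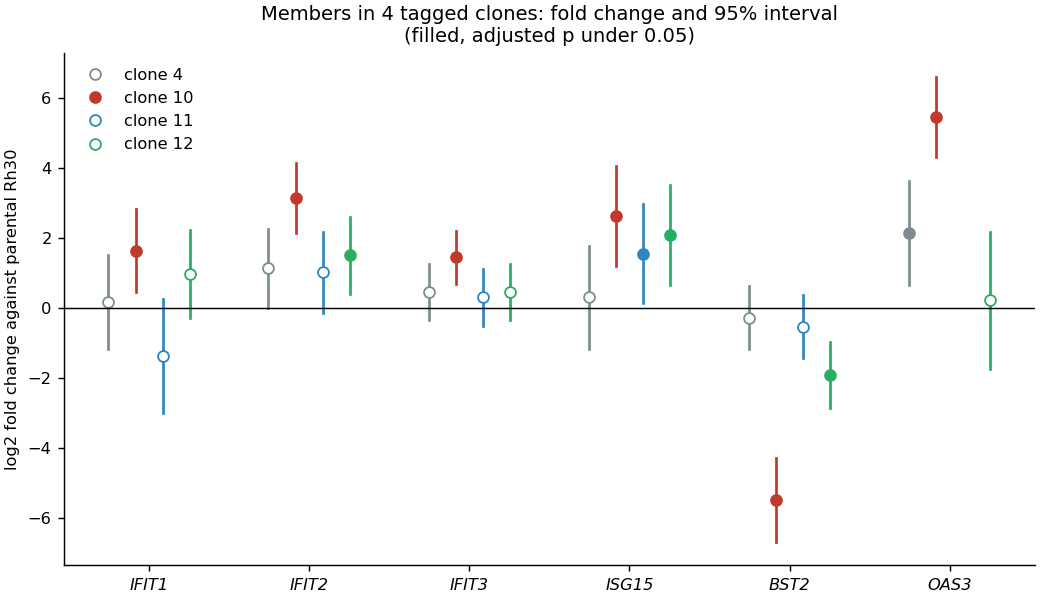
Log2 fold change against parental Rh30 for 6 members in clones 4, 10, 11 and 12, with a 95% interval from the SE at 5 residual degrees of freedom. Filled points had an edgeR adjusted p under 0.05, and OAS3 in clone 11, with 0 counts, is not drawn. In clone 10 all 6 points are filled, 5 above 0 and BST2 at -5.47, with OAS3 there as a description; in clone 12 BST2 is at -1.92 and ISG15 at 2.09.

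OAS3 left aside, the clones differed among themselves for 5 of 5 members tested (edgeR F test over the 4 tagged clones), against 63.5% of all genes. Clone 10 differed from clone 4 in 5 of 5 members (23.8% of all genes), from clone 11 in 4 of 5 (42% of all genes) and from clone 12 in 3 of 5 (35.3% of all genes). BST2 was lower and IFIT2 and IFIT3 were higher in clone 10 in each of these comparisons. Across the 16 or 17 alternatives of each comparison, BST2 and IFIT2 kept their direction in clone 10 against parental Rh30 and against each other clone, and they stayed past the threshold in all alternatives that carried a test. IFIT3 was past it in 9 of 16 against clone 4, 14 of 16 against clone 11 and 12 of 15 against clone 12, and IFIT1 in 6 of 16 against clone 4.

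The other interferon pathway genes were set beside these, from lists that share no member with the 9. Of 15 class I antigen presentation genes tested, HLA-B, HLA-C, PSMB8 and PSMB9 passed the count filter through clone 10 alone and had to be high there. Of the other 11, 8 were called higher and 0 lower in clone 10 against parental Rh30, beside 27.8% and 24.2% of all genes. TAP1, which carries peptides to class I molecules, was at a mean of 12.3 normalised counts in parental Rh30 and 85.2 in clone 10 (log2 fold change 2.79, SE 0.409, edgeR adjusted p = 3.59e-04), and NLRC5, a transactivator of class I genes, rose by 1.86 (2.46e-04). HLA-C had 1 count in each parental library and 42 and 46 in clone 10, and TAPBP rose by 1.18 (edgeR adjusted p = 1.32e-04). HLA heavy chain genes share sequence, so their counts are uncertain. The median of these 11 genes was 0.863, with 0.042 for all genes that passed the filter without clone 10. In clone 12, 7 of the 11 were higher and 0 lower, beside 27.8% and 24.7% of all genes. In clone 4, 4 were higher and 0 lower (25.1% and 22.3% of all genes), and in clone 11, 4 were higher and 2 lower (26.5% and 25.1% of all genes). The gains of the named genes were not particular to clone 10. In clone 12 NLRC5 rose by 2.29, TAP1 by 2.37 and TAPBP by 0.57. TAP1 (1.23) and TAPBP (0.55) were also called higher in clone 4, and TAP1 (1.21) in clone 11, while NLRC5 was called in neither.

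Of 35 other interferon-stimulated genes tested in clone 10, 15 were higher and 2 lower, with a median of 0.682. Together 48.6% of the list was called, against 52% of all genes (27.8% higher and 24.2% lower). PARP10 went from a mean of 129.4 in parental Rh30 to 816.7 in clone 10 (log2 fold change 2.66, SE 0.171), IFI6 from 113.6 to 742.6 (2.71, SE 0.22) and HERC6 from 15.2 to 98.9 (2.70, SE 0.323). Of 7 ISG15 conjugation enzymes and negative regulators, 4 were higher and 0 lower: UBA7, the activating enzyme for ISG15, rose by 3.61, UBE2L6, its conjugating enzyme, by 1.31, USP18 by 1.34, and SOCS1, an inhibitor of JAK signalling, by 1.52. Of 8 STAT and IRF factors 5 were higher and 0 lower, led by IRF2 (1.37) and IRF7 (1.40), a factor that drives interferon genes. STAT3 rose by 0.49 and IRF1 by 0.50. Several of these genes rose in other clones too. UBE2L6 rose by 1.27, 1.26 and 0.64 in clones 4, 11 and 12, and SOCS1 by 1.37 and 1.63 in clones 11 and 12. PARP10 rose by 2.59, 0.89 and 1.985 in clones 4, 11 and 12. USP18 rose by 0.82 and 2.28 and HERC6 by 2.02 and 1.28 in clones 4 and 12. IFI6 rose by 1.63 and STAT3 by 0.66 in clone 12, and IRF7 by 1.03 in clone 11. IRF1, UBE2L6 and PARP10 were called higher in all 4 clones, but UBA7 and IRF2 in clone 10 alone. Of the 7 ISG15 conjugation enzymes and negative regulators, 4 were higher and 1 lower in clone 12 (27.8% and 24.7% of all genes).

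The remaining lists were mixed in clone 10, and their shares called of 45.5%, 22.2% and 28.6% lay below the 52% of all genes. Of 11 sensors and adaptors 3 were higher and 2 lower: TMEM173 (STING), the adaptor of cytosolic DNA sensing, rose by 1.25 and IKBKE by 0.88, while TBK1, a kinase of the same branch, fell by 1.06. TBK1 fell in clones 4, 11 and 12 as well, by 1.38, 1.69 and 1.49. TICAM2, an adaptor of Toll-like receptors, had 69 and 54 counts in parental Rh30 and 0 in both clone 10 libraries. It also had 0 in both libraries of clones 4 and 12, and 23 and 0 in clone 11. Of 9 receptor and kinase genes 1 was higher, JAK1 (0.76), and 1 lower, IL28RA (-1.97, 3 and 4 counts in clone 10 against 18 and 19). Of 7 interferon gamma responsive genes WARS rose by 0.84 and GBP2 fell by 2.38. The fibroblast markers, with 1 of 3 reaching 10 counts in clone 10 and in parental Rh30, summed to 1198 in both clone 10 libraries and to 282 and 307 in parental Rh30. This sum was nearly all COL1A1, at 1188 and 1187 for the clone 10 libraries. LUM had 3.58 and 3.32 there against 4.83 and 3.58 for parental Rh30. DCN had 6.26 and 7.76 against 0.81 and 0.72. A high sum was not particular to clone 10, since the clone 12 libraries reached 2649 and 2033. Those of clones 4 and 11 stayed below parental Rh30. The part of these markers in the values above was not tested.

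**Figure D5:**
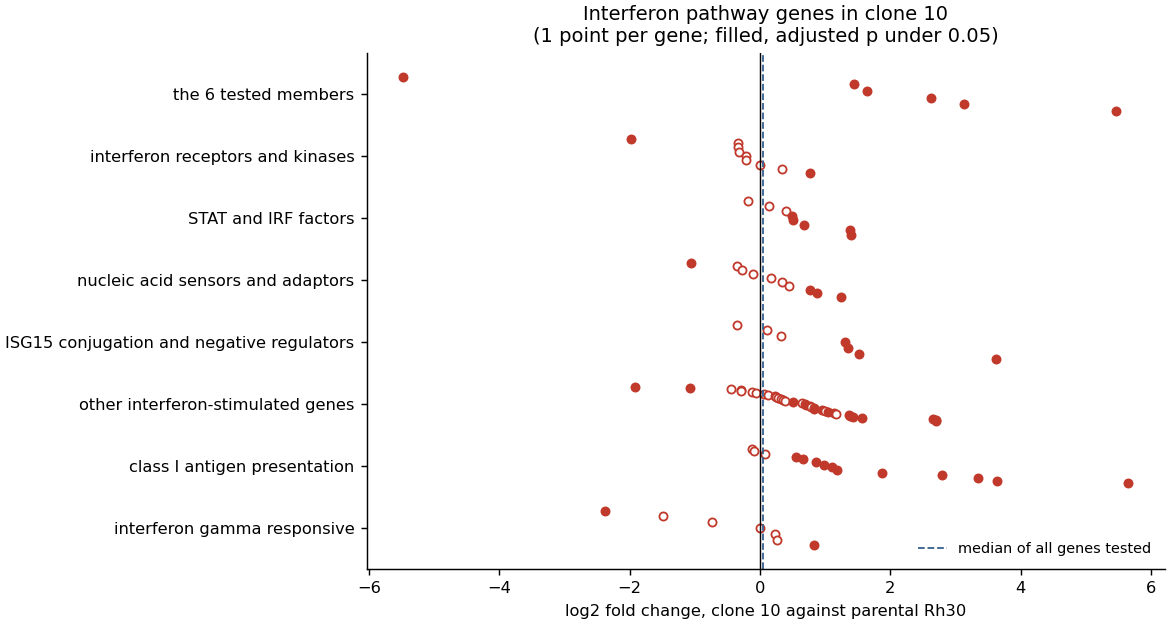
Log2 fold change of clone 10 against parental Rh30 for the 6 tested members and the genes of 7 pathway lists, 1 point per gene, filled where the edgeR adjusted p was under 0.05; 2 genes with 0 counts in a group, HLA-B and TICAM2, are left out. OAS3, HLA-C, PSMB8 and PSMB9 passed the count filter through clone 10 alone. The class I list and the ISG15 conjugation list have filled points to the right of 0 only, and BST2 is the far left point among the members.

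The time-course lines were set beside the clones in CPM of each column's total, as levels only, since the tables were normalised separately and counted in different ways. BST2 was at 1.27 CPM in the DMSO column of the PAX3-FOXO1-FKBP line, at a mean of 1.60 in clone 10, and at 17.1 to 75.7 in parental Rh30 and the other clones. In the FOXO1-FKBP line it was at 39.9. OAS3 was at 1.79 in the PAX3-FOXO1-FKBP line, 4.26 in clone 10, 0.407 or less in the other groups and 0 in the FOXO1-FKBP line. IFIT2 was at 3.79, 3.07 and 0.376 to 0.921 in the same order, and at 0.862 in the FOXO1-FKBP line. IFIT1 was at 1.40, 1.49 and 0.174 to 0.857, and at 0.313 in the FOXO1-FKBP line. IFIT3 was at 3.95, 4.0 and 1.60 to 1.93, and at 1.10 in the FOXO1-FKBP line. The PAX3-FOXO1-FKBP line in DMSO thus had BST2, OAS3 and the 3 IFIT genes on the same side of the other groups as clone 10. ISG15 did not follow: it was at 17.4 there and at 36.8 in clone 10, and the line lay between clone 11 (16.2) and clone 12 (23.5).

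Genes with the courses most like those of the members were looked for among genes with a mean of at least 50 and a 2-fold range, as a description by Pearson's r of log2(normalised count + 2). Over the 10 time-course columns, which share their pools with the members, BST2 was most like ODC1 (r = 0.998), IFIT3 like PVRL2 (0.994), IFIT2 like RBMS2 (0.993) and ISG15 like CCDC80 (0.985). The lines stand apart for these genes, so r rests largely on 2 levels. Over the 10 clone libraries BST2 was most like NANOS1 (0.993) and ISG15 like FZD2 (0.963).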

How the data were processed

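RNA from 30 Rh30 samples was sequenced. Per the submitters' processing notes, Trimmomatic 0.32, Bowtie2, Cuffdiff 2.1.1 and hg19 were used, with no role stated. The sources used here do not give the counting tool or its use of strand. The authors deposited raw counts per library for the clones and estimated counts for the time course, with 1 pooled column per condition. Members and lists were chosen with earlier results of these data known. Clone counts went into quasi-likelihood F tests of edgeR 4.0.16 under R 4.3.3, with TMM scaling, filterByExpr and Benjamini-Hochberg adjustment over all genes tested (5 residual degrees of freedom). Time-course counts were rounded for the slope test (3 residual degrees of freedom), and changes used a prior count of 2. Genes with an exact 0 beside columns of at least 10 counts were left out of the size rule. Named pathway genes are up to 4 a list by lowest p or largest change, otherwise the most abundant. The procedures were tested on simulated data. Alternatives covered scaling, filters, DESeq2, priors, length and left-out libraries. Intervals on ratios of counts are exact at 95% and cover counting error only. The 95% intervals on log2 fold changes come from the SE and a t distribution with 5 degrees of freedom.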

Additional observations from a re-analysis of the deposited data

Results flagged for a closer look

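Comparisons of clone 10 with another clone tagged in the same way were flagged 15 times for a single member, those of OAS3 included. Those of the other members were past the threshold of edgeR's quasi-likelihood test (adjusted p under 0.05, 2 libraries a group). OAS3 passed the count filter through clone 10 alone, so its differences are a description and do not count as test results. Against clone 4 the log2 differences were 1.47 for IFIT1, 2.00 for IFIT2, 0.99 for IFIT3, 3.31 for OAS3, 2.33 for ISG15 and -5.19 for BST2. Against clone 11 they were 3.0 for IFIT1, 2.11 for IFIT2, 1.14 for IFIT3, 9.50 for OAS3 and -4.93 for BST2. The OAS3 value against clone 11, which had 0 counts, depends on the prior count of the fit and is no bound. Against clone 12 they were 1.63 for IFIT2, 0.995 for IFIT3, 5.24 for OAS3 and -3.55 for BST2. Between 23.8% and 42% of all genes were called in these 3 comparisons.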

How the results depend on the processing

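Direction and call held for the 5 members other than OAS3 in clone 10 against parental Rh30 under all scalings, filters, tests and the replicate block, and leaving out single libraries gave 5 to 6 members called, OAS3 included. Only libraries 1 and 2 of parental Rh30 and 2 of clone 10 took IFIT1 below the threshold. Leaving out a library gave 3923 to 7027 genes called in clone 4, 4586 to 8135 in clone 10, 4734 to 8069 in clone 11 and 4758 to 8181 in clone 12, and 0 to 1, 5 to 6, 0 to 2 and 1 to 3 members. For clone 10 against clones 4, 11 and 12 it gave 1856 to 3977, 3043 to 6816 and 2310 to 5997 genes, with 3 to 6, 4 to 6 and 3 to 4 members. Counts of members in this section include OAS3 wherever it passed the count filter. Members called in clone 11 were 0 with DESeq2 and 0 with the 2 groups alone. Those in clone 4 were 0 with the 2 groups alone, and clone 10 against clone 4 then gave 1950 genes. Values that turned sign had no call: with library totals IFIT1 in clone 4 was -0.0102. Leaving out single libraries gave -0.11 to 0.60 for OAS3 in clone 12, -0.46 to 0.54 for IFIT1, -0.12 to 0.55 for ISG15 and -0.81 to 0.0319 for BST2 in clone 4, and -0.18 to 1.03 for ISG15 of clone 10 against clone 12.

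The replicate numbers of parental Rh30 and clones 4, 10 and 11 share only a number, with correlations of deviations from -0.0364 to 0.569 over 6 pairs of groups. With the number as a replicate block, genes called were 7046, 7705 and 7689 in clones 4, 10 and 11 against parental Rh30. Members called were 1, 6 and 2, with OAS3 among those tested. In the main fit without OAS3, 0, 5 and 1 of 5 were called in these clones, beside 47.4%, 52% and 51.6% of all genes. ISG15 of clone 10 against clone 11 passed the threshold with the block (1.14, edgeR adjusted p = 0.0107), BST2 fell in clone 11 (-0.68, 0.0116) and OAS3 in clone 11 lost its call (0.0527).

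Library totals in place of TMM moved the median of all genes to -0.125, -0.0617, -0.231 and -0.192 in clones 4, 10, 11 and 12, and the share of calls that were higher from 53%, 53.5%, 51.3% and 52.9% to 38.5%, 44.7%, 35.5% and 36.6%. For clone 10 against clones 11 and 12 the share went from 51.4% and 51.5% to 61.5% and 61.4%, with medians of 0.108 and 0.121.

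In the PAX3-FOXO1-FKBP time course, genes past 2-fold at 2 h were 160 with a minimum mean of 20. With no minimum they were 861, 832, 1072 and 1798 at 2, 6, 24 and 72 h, and 3 members were higher at 2 h. In the FOXO1-FKBP line at 72 h the minimum of 20 gave 84 genes, no minimum 481 and the length and GC correction 30. The slope test in the PAX3-FOXO1-FKBP line called 475 genes and 0 members without the 2 h column, 127 and 0 without the 72 h column, and 999 genes with DESeq2. Without the 72 h column its slopes were -0.0111 for IFIT3, -0.0575 for ISG15 and -0.0941 for BST2. In the FOXO1-FKBP line 1 gene was called without the 72 h column and 1 with DESeq2, and slopes without that column were -0.0275 for IFIT3 and -0.086 for BST2. The difference between lines was called for 65 genes without the 2 h column, 51 without the 72 h column and 541 with DESeq2. Without the 72 h column it was -0.00404 for IFIT2 and -0.00119 for BST2. The cause of these shifts was not tested. With 2 libraries a group, IFIT1 and OAS3 counts outside clone 10 limit the precision.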
